A study of Mus musculus with 3 samples.

Results

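The cells described here are the Hoxa13-positive mesenchymal cells of the mouse forelimb bud at embryonic stage E10.5. They were taken from the authors' cluster 0, the limb mesenchyme, as cells with at least 1 unique molecular identifier (UMI, 1 counted transcript molecule) of Hoxa13, 0 of Shh, fewer than 3 of Sox9 and fewer than 2 of Scx. The members were thus chosen by their own Hoxa13, Shh, Sox9 and Scx counts. These limits left 371 cells, of 11318 mesenchymal cells under the same 3 other limits, 15325 mesenchymal cells and 18957 cells in the library, and of 43950 cells in the whole series. The series holds single-cell RNA sequencing of forelimb buds from wild-type embryos, with 1 droplet reaction for each strain and stage. The group B6_E10.5 is c57bl6.J at E10.5 and supplied all 371 cells; B6_E9.5 is c57bl6.J and 129_E9.5 is 129S6.sv, both at E9.5. The sources used here do not give the number of embryos pooled in a reaction. All 3 groups are wild type, the labels name no treatment of the embryos, and with 1 library per group no difference between groups of embryos could be tested.

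The autopod is the part of the limb that forms the wrist, palm and digits. It arises from the distal end of the bud, under the apical ectodermal ridge, where fibroblast growth factors from the ridge keep the mesenchyme dividing. Hox genes at the 5′ end of the HoxA and HoxD clusters are switched on late and distally, and Hoxa13 and Hoxd13 together are required for the autopod to form in the mouse. Meis1 and Meis2, homeodomain partners of Hox proteins, mark the proximal part of the limb, which forms the upper arm, and Hoxa11 is known for the forearm.

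Each positive cell was set beside the 5 Hoxa13-zero cells nearest to it in total UMIs, under the same limits on Shh, Sox9 and Scx. This gave 1855 matched cells, with a median of 8646 UMIs (580 to 21234) in the Hoxa13-positive cells and 8645 UMIs (580 to 21862) in the matched Hoxa13-zero cells. The 10947 Hoxa13-zero cells before matching had a median of only 4928 UMIs. UMIs were summed over each group and are given as CPM, counts per 1000000 UMIs of the group, and a ratio is Hoxa13-positive over matched Hoxa13-zero. Hoxa13 counts of these same cells chose the groups, so every ratio is a description with no test. Intervals are 95% and cover counting error only, because the cells of 1 library are not replicates.

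Hoxa13 itself was sparse. Of the 371 cells, 298 had 1 UMI, 59 had 2 and 14 had 3 or more, with a highest count of 4 and a total of 461 UMIs. A cell with no Hoxa13 UMI is not shown to lack the transcript. Other clusters of the same library give the background. A Hoxa13 UMI was found in 3.002% of mesenchymal cells (median 5422 UMIs), against 1.47% of muscle cells (22 of 1498, median 7695.5 UMIs), 0.566% of endothelial cells (4 of 707, median 6467 UMIs), 0.195% of ectodermal cells (2 of 1026, median 5731.5 UMIs) and 0.748% of erythroid cells (3 of 401, median 14608 UMIs).

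The label of the cells was checked against Hoxd13 and Hoxd11, neither of which the rule used. Hoxd13 was found in 52.0% of Hoxa13-positive cells (46.8 to 57.2%) and in 13.9% of matched Hoxa13-zero cells (12.4 to 15.6%), against 1.40% of muscle, 1.27% of endothelial, 0.877% of ectodermal and 0.748% of erythroid cells. Hoxd11 was found in 83.3% of Hoxa13-positive cells and in 49.6% of matched Hoxa13-zero cells. In cells thinned to 2000 UMIs, the shares with Hoxd13 were 26.8% in positive and 5.36% in matched cells, and those with Hoxd11 were 45.9% and 24.3%. The 8 limb mesenchyme markers summed to 1675 CPM in positive cells and 2242 CPM in matched cells. Of them, 5 were within 1.5-fold, among them Prrx2 at 466 CPM in positive and 509 CPM in matched cells, and 3 were at least 1.5-fold lower, namely Shox2, Prrx1 and Pdgfra.

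The values on either side of each limit are given once, as description. Cells with 1 Hoxa13 UMI had 179.9 CPM of Hoxd13, and the 10947 cells with none had 29.1 CPM. The limits on the other genes left out 89 of 460 Hoxa13-positive mesenchymal cells, 45 of them through Shh, 33 through Sox9 and 16 through Scx. Hoxd13 stood at 191.7 CPM in the 10 positive cells with 2 Sox9 UMIs, inside the limit, and at 170.7 CPM in the 10 with 3, outside it. It stood at 171.4 CPM in the 33 positive cells with 1 Scx UMI, inside, and at 65.7 CPM in the 6 with 2, outside. The 18 positive cells with 1 Shh UMI, left out, had 343.9 CPM of Hoxd13.

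These 3 promoters are shown as examples: Hoxd13 and Evx1 are among the 15 highest ratios and Meis2 is among the 15 lowest. Other genes had higher or lower ratios. Each is the 250 bases before 1 annotated start, the first listed for the gene, from RefSeq on GRCm38.p6. A gene can have several starts. The Hoxd13 stretch is chr2:74667975-74668224 on the plus strand, that of Evx1 is chr6:52313248-52313497 on the plus strand, and that of Meis2 is chr2:116064620-116064869 on the minus strand. The Meis2 stretch lies inside the full span of the gene (mm10 chromosome 2, 115863064 to 116065839), so it is not upstream of the outermost start. Capitals mark CAATAAA or its reverse complement TTTATTG, letters that group 13 Hox proteins are known to bind.
Hoxd13 promoter: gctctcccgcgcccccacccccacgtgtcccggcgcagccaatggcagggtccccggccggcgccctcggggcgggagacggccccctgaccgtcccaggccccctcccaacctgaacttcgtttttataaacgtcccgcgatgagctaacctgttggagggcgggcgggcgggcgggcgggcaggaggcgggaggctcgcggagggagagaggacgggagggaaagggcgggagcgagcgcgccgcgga
Evx1 promoter: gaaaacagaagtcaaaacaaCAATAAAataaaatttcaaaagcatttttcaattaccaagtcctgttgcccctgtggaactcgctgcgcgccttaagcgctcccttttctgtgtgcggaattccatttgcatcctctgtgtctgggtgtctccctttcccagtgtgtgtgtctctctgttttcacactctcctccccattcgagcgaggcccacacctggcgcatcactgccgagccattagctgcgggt
Meis2 promoter: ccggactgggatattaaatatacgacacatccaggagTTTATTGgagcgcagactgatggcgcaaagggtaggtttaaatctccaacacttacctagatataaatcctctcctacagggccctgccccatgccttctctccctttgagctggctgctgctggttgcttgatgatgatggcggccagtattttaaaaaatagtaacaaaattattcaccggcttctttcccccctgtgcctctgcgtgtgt
The Evx1 stretch holds CAATAAA from base 21, the Meis2 stretch holds TTTATTG from base 38, and the Hoxd13 stretch holds neither. On either strand, these letters were in 4.20% of 32851 mouse promoter stretches of this length and in 2.48% of the 6130 of tested genes. Some genes had no stretch and some had several: 37 stretches covered 29 of the 42 genes at least 2-fold higher. For the 77 genes at least 2-fold lower, 73 stretches covered 56. The letters were in 1 of the 37 (2.70%) and in 3 of the 73 (4.11%). The Evx1 stretch shown is that 1, and the Meis2 stretch shown is among the 3, so the examples are not typical of their groups. A second form, TCGTAAA or TTTACGA, was in 0.478% of all stretches and in 0 of both gene groups. A match is a description of the letters and not a binding site.

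Genes were compared when they reached 20 CPM and 20 UMIs in the higher of the 2 cell groups, which left 6036. Of these, 42 (0.696%) were higher in Hoxa13-positive cells by 2-fold or more and 77 (1.28%) were lower by as much. At 1.5-fold, 141 (2.34%) were higher and 156 (2.58%) lower. Each of these had an interval that excluded a ratio of 1. The 20 CPM minimum gives counts so large that any gene past 1.5-fold has such an interval, so this adds nothing. The median log2 ratio over all 6036 genes was 0.06.

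From Hoxd9 to Hoxd13, in the HoxD cluster on chromosome 2, each gene's ratio was above that of the gene before it. Hoxd4 and Hoxd8, on the 3′ side of Hoxd9, were outside this order, with ratios of 0.74 and 1.02. Hoxd9 had 114 CPM in Hoxa13-positive cells and 180 CPM in matched cells, a ratio of 0.63 (0.57 to 0.71). The next genes stood at 1.29 for Hoxd10, 1.97 for Hoxd11 (316 and 161 CPM in positive and matched cells), and 3.19 for Hoxd12 (151 and 47.3 CPM). Hoxd13, at the end of the cluster (mm10 chromosome 2, 74668310 to 74671599), had 195 CPM in positive cells and 41.3 CPM in matched cells, a ratio of 4.72 (4.23 to 5.28). Evx2, which lies beyond Hoxd13, had 21 UMIs in positive cells and 12 UMIs in the 5 times as many matched cells. It did not reach the 20 CPM asked of compared genes. In cells with 1 Hoxa13 UMI it had 5.62 CPM, against 0.886 CPM in the cells matched to them. With 2 or more Hoxa13 UMIs it had 9.94 CPM, against 0.569 CPM.

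The HoxA cluster on chromosome 6 was less regular. Hoxa9 stood at 187 CPM in Hoxa13-positive cells and 200 CPM in matched cells, and Hoxa10 at 323 CPM in positive and 257 CPM in matched cells, a ratio of 1.26 (1.17 to 1.34). Hoxa11 had 72.6 CPM in Hoxa13-positive cells and 65.6 CPM in matched cells, and its ratio of 1.11 had an interval from 0.96 to 1.28. Evx1, an even-skipped homeodomain gene 52618 bases from Hoxa13 (mm10 chromosome 6, 52313498 to 52318378), had 47.0 CPM in positive cells and 7.12 CPM in matched cells. Its ratio of 6.59 (5.13 to 8.49) was the second highest of the compared genes apart from Hoxa13, and 29.9% of positive and 4.96% of matched cells had an Evx1 UMI. Of 9 compared members of the 5′ Hox and Evx list other than Hoxa13, 4 were higher by 1.5-fold or more and 1 lower.

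**Figure D1:**
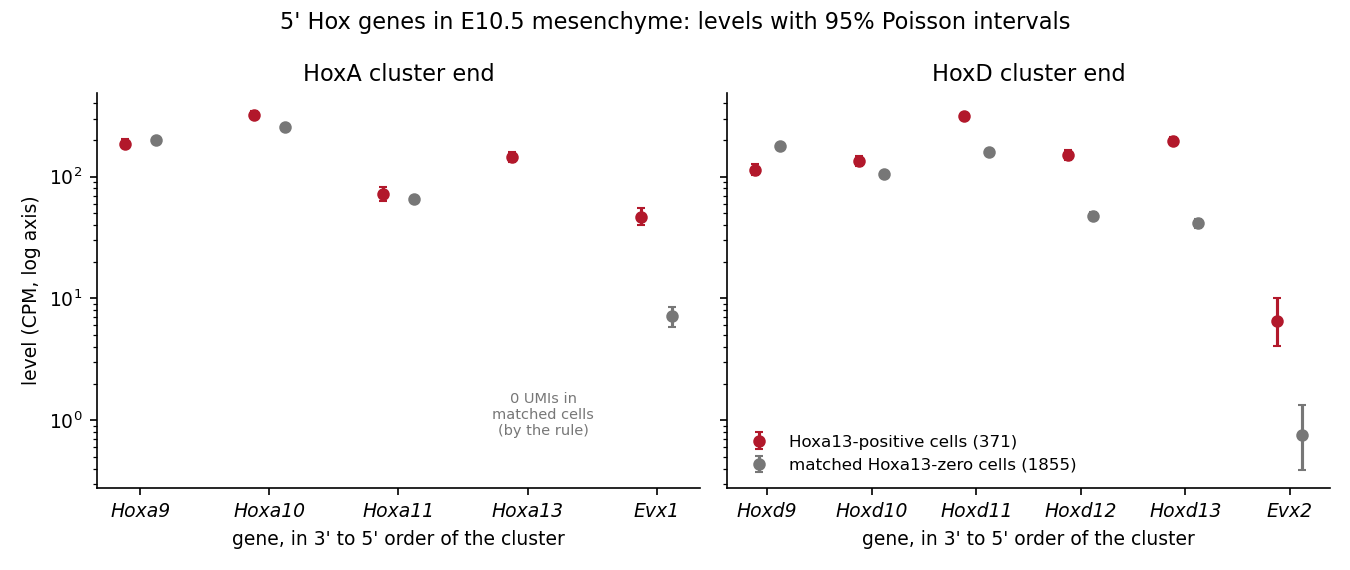
Levels (CPM, log axis) of HoxA genes with Evx1 (left) and HoxD genes with Evx2 (right), ordered toward the 5′ end of each cluster, in 371 Hoxa13-positive cells (red, left of each pair) and 1855 matched Hoxa13-zero cells (grey, right), with 95% Poisson intervals. The gap between the groups widens from Hoxd10 to Hoxd13, while Hoxa11 stands at 72.6 CPM in positive and 65.6 CPM in matched cells; Hoxa13 chose the groups.

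Toward the 3′ end of the clusters, 0 of 5 compared Hox genes were at least 1.5-fold higher and 2 were at least 1.5-fold lower. Hoxc6 had 5.01 CPM in Hoxa13-positive cells and 22.7 CPM in matched cells. Hoxa7 had 58.5 CPM in positive cells and 94.3 CPM in matched cells, and Hoxa5 had 41.6 CPM in positive and 39.2 CPM in matched cells. The median log2 ratio of these 5 genes was -0.44.

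The gene with the highest ratio was Tfap2b, which encodes the transcription factor AP-2 beta. It had 82.3 CPM in Hoxa13-positive cells and 10.4 CPM in matched cells, a ratio of 7.92 (6.49 to 9.68). A Tfap2b UMI was found in 23.7% of positive cells, with up to 14 UMIs in a cell, and in 3.56% of matched cells. Its relatives Tfap2c and Tfap2a had ratios of 3.23 (2.64 to 3.93) and 2.01 (1.61 to 2.49). Tfap2b also stood at 231 CPM in the ectoderm of this library. The 12 ectoderm markers summed to 66.4 CPM in Hoxa13-positive cells and 29.5 CPM in matched cells, and the 11 other than Tfap2c summed to 13.5 CPM in positive cells and 13.1 CPM in matched cells. Among them, Epcam had 11 UMIs in positive and 34 in matched cells, Krt18 had 5 in positive and 78 in matched cells, and Cdh1 had 0 in positive and 4 in matched cells. The part of these markers in the Tfap2b ratio was not tested. With the cells that held any marker of another cell type left out, the ratio of Tfap2b was 11.9.

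The genes of the 15 highest ratios also included Jag1, Hey1 and Eogt. Jag1, a ligand of the Notch receptors, had 70.4 CPM in Hoxa13-positive cells and 12.9 CPM in matched cells, a ratio of 5.48 (4.51 to 6.65). Hey1, a repressor that Notch signalling switches on, had 130 CPM in positive cells and 39.6 CPM in matched cells, a ratio of 3.27. Eogt, whose enzyme adds a sugar to the extracellular repeats of Notch and other proteins, had 42.3 CPM in positive cells and 13.2 CPM in matched cells. The 3 were put together after their values were seen, and the other genes of Notch signalling were not listed.

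Lmo2 encodes an adaptor that joins transcription factors into complexes and is best known from blood formation. It was found in 67.9% of Hoxa13-positive cells and 17.1% of matched cells, at 243 and 46.3 CPM, a ratio of 5.25 (4.74 to 5.82). Erythroid cells of the same library had 32.5 CPM of Lmo2, and the 10 erythroid markers summed to 259 CPM in positive cells and 290 CPM in matched cells. The other genes of the 15 highest ratios included Gja3, a gap junction protein (3.98), Klf9, a zinc finger factor (3.60), and Cbfa2t3, a transcriptional corepressor (3.31). They also included Cdc42ep3, an effector of the GTPase Cdc42 (2.99), Sall1, another zinc finger factor (2.96), and Junb, a member of the AP-1 family (2.95).

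**Figure D2:**
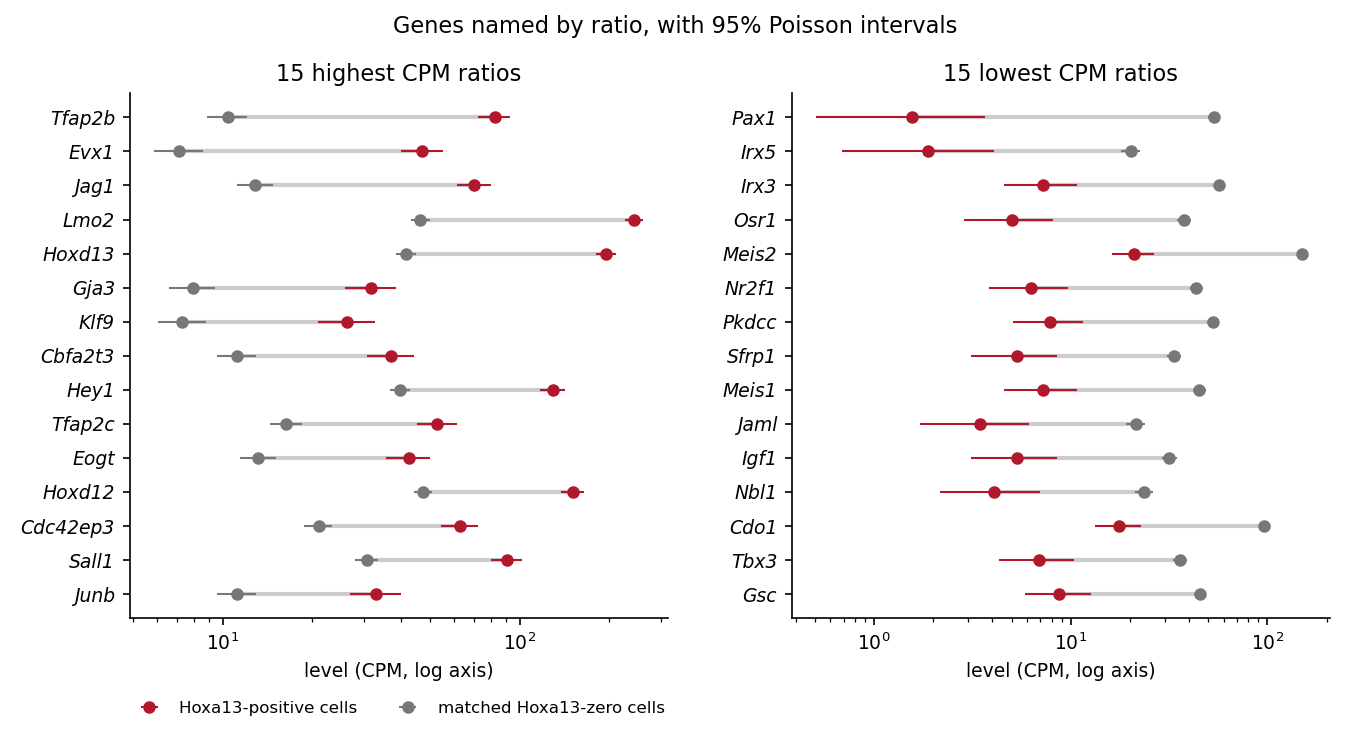
Levels (CPM, log axis) of the 15 genes with the highest ratios (left) and the 15 with the lowest (right) in Hoxa13-positive cells (red) and matched Hoxa13-zero cells (grey), with 95% Poisson intervals. Tfap2b stands at 82.3 CPM in positive and 10.4 CPM in matched cells, and Meis2 at 21.0 CPM in positive and 150 CPM in matched cells.

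Of 18 compared genes of distal outgrowth, 10 were higher in Hoxa13-positive cells by 1.5-fold or more and 3 lower. Their median log2 ratio was 0.98, against 0.06 over all compared genes. The list holds Tfap2b, Jag1, Lmo2, Sall1 and Tfap2a, already named above. Like the other lists, it was chosen with earlier results of these data known, so its counts and median are description only. Wnt5a, a secreted ligand that guides outgrowth, had 243 CPM in positive cells and 101 CPM in matched cells. Epha4, a receptor for ephrins, had 470 CPM in positive cells and 196 CPM in matched cells. Fgf10, which the mesenchyme sends to the ridge, had 42.3 CPM in positive cells and 21.1 CPM in matched cells, and Sall3 and Sall4 had ratios of 2.09 and 1.93. General markers of the distal bud differed little in CPM: Msx1 had 394 and 379 CPM, and Lhx9 254 and 285 CPM, in positive and matched cells. More of the positive cells held a UMI of them, however. Msx1 was at 0 UMIs in 101 of 371 positive cells and 894 of 1855 matched cells, and Lhx9 in 83 and 611. Msx2 (ratio 0.31), the T-box gene Tbx3 (0.19) and the ephrin receptor Epha7 (0.24) were the 3 lower members.

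Of 12 compared genes of FGF signalling and its response, 7 were 1.5-fold or more higher in Hoxa13-positive cells, 5 were within 1.5-fold and 0 were 1.5-fold or more lower, with a median log2 ratio of 0.68. Dusp6, a phosphatase that FGF signalling induces and that dampens ERK, had 362 CPM in Hoxa13-positive cells and 173 CPM in matched cells, a ratio of 2.10 (1.96 to 2.25). The Sprouty feedback inhibitors Spry4, Spry1 and Spry2 had ratios of 2.83, 2.06 and 2.01, and the ETS factor Etv4 had 94.5 CPM in positive cells and 56.98 CPM in matched cells. The receptor Fgfr1 had 106 CPM in positive cells and 135 CPM in matched cells. The 9 markers of the apical ridge, the source of FGF8, summed to 14.4 CPM in positive cells and 8.57 CPM in matched cells. Fgf8 had 19 UMIs in positive cells and 14 in the 5 times as many matched cells. In cells with 1 Hoxa13 UMI, Fgf8 had 7.23 CPM, against 0.886 CPM in the cells matched to them, a ratio of 8.16 (3.65 to 19.1). With 2 or more Hoxa13 UMIs, Fgf8 had 1 UMI, against 2 in the cells matched to them. A ridge marker was found in 6.47% of the cells of both groups; with those cells left out the Tfap2b ratio was 7.40 and the Hoxd13 ratio 4.49.

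Of 11 compared genes on a list of reported targets of the group 13 Hox proteins, 5 were higher by 1.5-fold or more and 2 lower, with a median log2 ratio of 0.49. The higher genes included Jag1, Sall1 and Cyp26b1, which breaks down retinoic acid and had 187 CPM in Hoxa13-positive cells and 99.0 CPM in matched cells. Enpp2, the enzyme autotaxin, had 20.0 CPM in positive cells and 11.6 CPM in matched cells. The lower ones were Epha7 and Shox2, a homeodomain factor of the upper arm, with 55.7 CPM of Shox2 in positive cells and 202 CPM in matched cells. Bmp7 stood at 48.8 and 47.3 CPM, and Fbn2, a fibrillin of the matrix, at 129 and 123 CPM, in positive and matched cells.

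Proximal genes were the counterpart. Of 13 compared, 0 were at least 1.5-fold higher in Hoxa13-positive cells and 10 were at least 1.5-fold lower, with a median log2 ratio of -2.04. Meis2 was found in 9.70% of Hoxa13-positive cells and 40.9% of matched cells, at 21.0 and 150 CPM, a ratio of 0.14 (0.11 to 0.18). Meis1 had 7.20 CPM in positive cells and 45.0 CPM in matched cells. Pbx2, which encodes a partner of Meis and Hox proteins, had 66.1 CPM in positive and 71.0 CPM in matched cells. The Iroquois genes Irx3 and Irx5, factors of the proximal and anterior bud, had 7.20 and 1.88 CPM in positive cells, against 56.9 and 20.2 CPM in matched cells. Aldh1a2, which makes retinoic acid, had 0 UMIs in positive cells and 18 in the 5 times as many matched cells. Of 7 compared retinoic acid genes, 1 was at least 1.5-fold higher (Cyp26b1) and 3 at least 1.5-fold lower, among them the retinoic acid binding protein Crabp2 with 270 CPM in positive cells and 564 CPM in matched cells.

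The gene with the lowest ratio was Pax1, a paired-box factor of the sclerotome and the shoulder region. It had 5 UMIs in Hoxa13-positive cells and 849 UMIs in matched cells, which is 1.57 and 53.5 CPM and a ratio of 0.029 (0.0095 to 0.069). The 849 UMIs lay in only 158 matched cells (8.52%), and the 5 in 5 positive cells (1.35%). The shares of cells thus lie closer together than the levels, and the interval does not cover this clumping of UMIs. The other lowest ratios were held by Osr1, an odd-skipped factor of connective tissue (0.13), Nr2f1, a nuclear receptor (0.14), Pkdcc, a secreted kinase (0.15), the secreted WNT antagonist Sfrp1 (0.16), Jaml, an adhesion protein (0.16), the growth factor Igf1 (0.17), Nbl1, a secreted BMP antagonist (0.17), Cdo1, cysteine dioxygenase (0.18), and Gsc, the factor goosecoid (0.19). The 6 markers of somite and sclerotome measured here summed to 19.1 CPM in positive cells and 88.4 CPM in matched cells. Uncx was at 0 in both groups, and the part of somite cells in these ratios was not tested.

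Along the anterior to posterior axis the compared genes went both ways. Of 9 compared genes of the posterior bud and Hedgehog signalling, 1 was higher by 1.5-fold or more and 3 lower. Ptch1, the Hedgehog receptor and itself a target of the pathway, had 58.5 CPM in Hoxa13-positive cells and 36.9 CPM in matched cells. Hand2, a factor of the posterior bud, had 90.5 CPM in positive cells and 64.6 CPM in matched cells, and the antagonist Grem1 had 45.7 CPM in positive and 41.0 CPM in matched cells. The Hedgehog co-receptors Gas1 and Cdon were lower, with ratios of 0.55 and 0.27. Of 8 compared anterior genes, 2 were at least 1.5-fold higher (among them the zinc finger gene Zic2, ratio 1.51) and 3 at least 1.5-fold lower (Pax1, Irx5 and Irx3). Alx4 and Alx1, on the same anterior list, did not reach 20 CPM and were not compared. Alx4 was found in 7 of 371 positive cells and 126 of 1855 matched cells. In cells with 1 Hoxa13 UMI, beside the cells matched to them, Alx4 had a ratio of 0.26 (0.093 to 0.58). Alx1 had 0.31 (0.14 to 0.61) there. The rule set Shh to 0, so cells with a Shh UMI are in neither group.

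Among limb mesenchyme factors, 0 of 13 were higher in Hoxa13-positive cells by 1.5-fold or more, 7 were within 1.5-fold and 6 were lower, including Prrx1 with 255 CPM in Hoxa13-positive cells and 543 CPM in matched cells, and Zfhx4 with 41.0 CPM in positive and 143 CPM in matched cells. For connective tissue and matrix, 1 of 11 (the proteoglycan Bgn, ratio 1.63) was higher, 5 were within 1.5-fold and 5 were lower, including Col3a1 with 48.2 CPM in positive cells and 128 CPM in matched cells. With the cells thinned to 2000 UMIs the Bgn ratio turned to 0.88. Of 4 compared cartilage genes, 2 were within 1.5-fold and 2 were lower, of which Col2a1 had 8.45 CPM in positive cells and 25.1 CPM in matched cells. Sox9 and Scx were limited by the rule and are not counted.

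Most WNT and BMP genes were within 1.5-fold, 12 of 16 and 9 of 12, with median log2 ratios of 0.02 and 0.04. The few others went in both directions. On the WNT list, Wnt5a and the receptor Fzd10 were at least 1.5-fold higher and the antagonists Sfrp1 and Sfrp2 at least 1.5-fold lower, while the pathway target Axin2 had 31.3 CPM in Hoxa13-positive cells and 32.1 CPM in matched cells. On the BMP list, the decoy receptor Bambi had 75.8 CPM in positive cells and 43.9 CPM in matched cells, and Id2, a target of BMP signalling, had 194 CPM in positive cells and 407 CPM in matched cells. Bmp4 itself had 90.8 and 88.8 CPM in positive and matched cells. Of 16 compared adhesion and guidance genes, 2 were higher, Epha4 and the guidance ligand Slit3 (ratio 2.49), and 6 were lower, among them the Slit receptor Robo2 (0.33). On the list for the dorsal and ventral axis, both compared genes were lower: the dorsal factor Lmx1b had 17.2 CPM in positive cells and 26.0 CPM in matched cells, and Msx2 is given above.

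Proliferation genes differed little in level. Of 19 S phase and 20 G2 and M phase genes, 0 passed 1.5-fold in either direction, and their medians were 0.14 and 0.13 on the log2 scale. Among cell cycle inhibitors and apoptosis genes, Cdkn1c, an inhibitor of cell division, had 287 CPM in Hoxa13-positive cells and 541 CPM in matched cells. Pmaip1, which encodes the pro-apoptotic protein NOXA, had 229 CPM in positive cells and 93.1 CPM in matched cells, a ratio of 2.46 (2.25 to 2.69). Of 13 glycolysis and 15 housekeeping genes, 0 passed 1.5-fold. Of 7 stress genes, which dissociation can induce, Junb was the single one past 1.5-fold, and its relative Jund had 178 CPM in positive cells and 232 CPM in matched cells. Mitochondrial transcripts took 3.51% of UMIs in positive cells and 3.59% in matched cells, and ribosomal protein transcripts 21.4% and 23.4%.

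**Figure D3:**
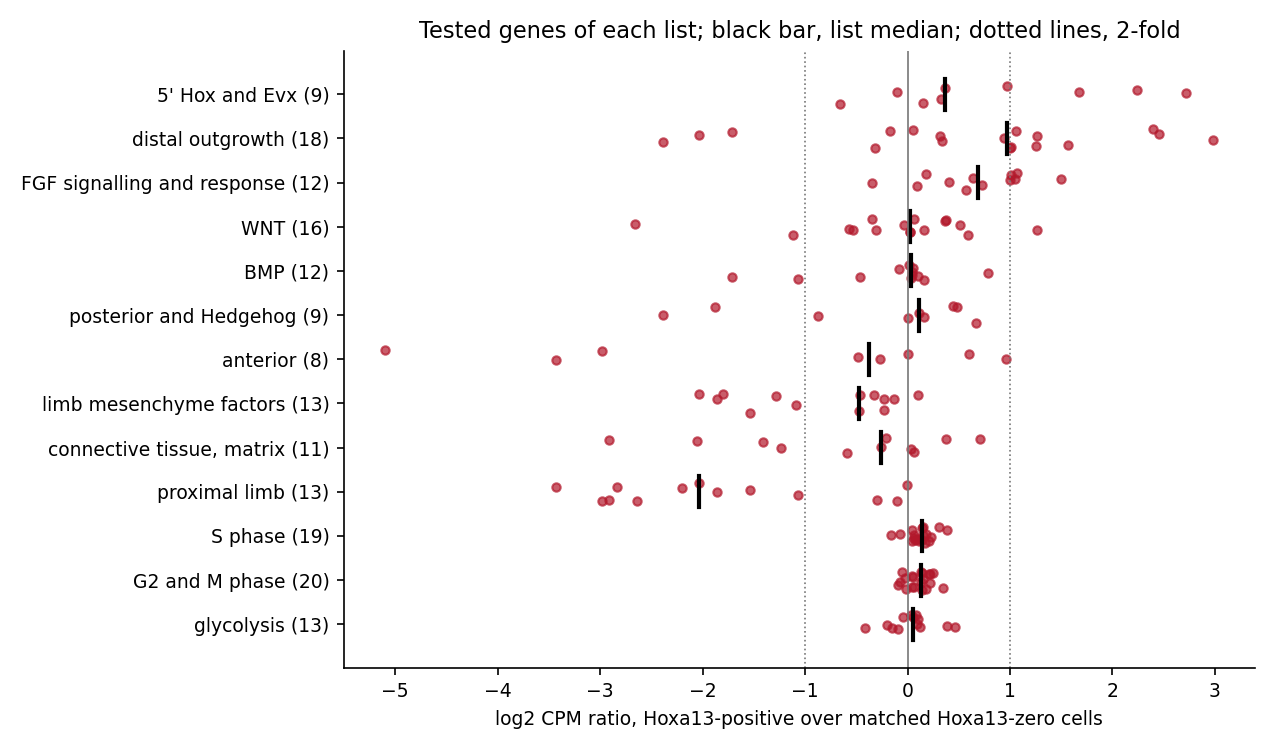
Each point is a compared gene of the list named at left, with the number of genes in brackets, placed by its log2 CPM ratio of Hoxa13-positive over matched Hoxa13-zero cells. Black bars mark list medians, 0.98 for distal outgrowth, 0.68 for FGF genes and -2.04 for proximal genes. The dotted lines mark 2-fold. The lists were chosen with earlier results of these data known.

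Within the Hoxa13-positive cells, the 73 cells with 2 or more Hoxa13 UMIs were set beside their own matched cells, as were the 298 cells with 1 UMI. Tfap2b stood at 132 CPM in the 73 cells, a ratio of 16.6 (10.8 to 26.3), and at 68.3 CPM in the 298 cells, a ratio of 6.47 (5.12 to 8.19). Lmo2 had ratios of 7.41 (6.04 to 9.12) with 2 or more Hoxa13 UMIs and 4.47 (3.97 to 5.03) with 1. For Hoxd13 they were 6.10 (4.87 to 7.66) and 4.29 (3.77 to 4.87), intervals that overlap slightly. Jag1 and Evx1 showed no such step, with Jag1 ratios of 5.11 and 5.51 and Evx1 ratios of 6.39 and 6.46 in the same order.

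Hoxa11 took opposite sides by Hoxa13 count. Its ratio was 0.56 (0.38 to 0.81) in cells with 2 or more Hoxa13 UMIs, at 45.4 CPM against 81.0 CPM in their matched cells. In cells with 1 Hoxa13 UMI the ratio was 1.25 (1.07 to 1.46), at 80.3 CPM against 64.1 CPM in their matched cells. Between the 2 classes directly, 5 of 5634 compared genes (0.0887%) were higher with 2 or more Hoxa13 UMIs by 2-fold or more and 49 (0.870%) lower. The minimum of 20 UMIs in the higher class asks for a higher CPM in the 73 cells than in the 298, so genes of low level enter mainly when they are lower in the 73 cells, and nothing is read from this split. Zfhx4 was at 17.0 CPM in the 73 cells and 47.8 CPM in the 298 cells. The 73 cells were also deeper, with a median of 9565 UMIs against 8411.5 UMIs.

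**Figure D4:**
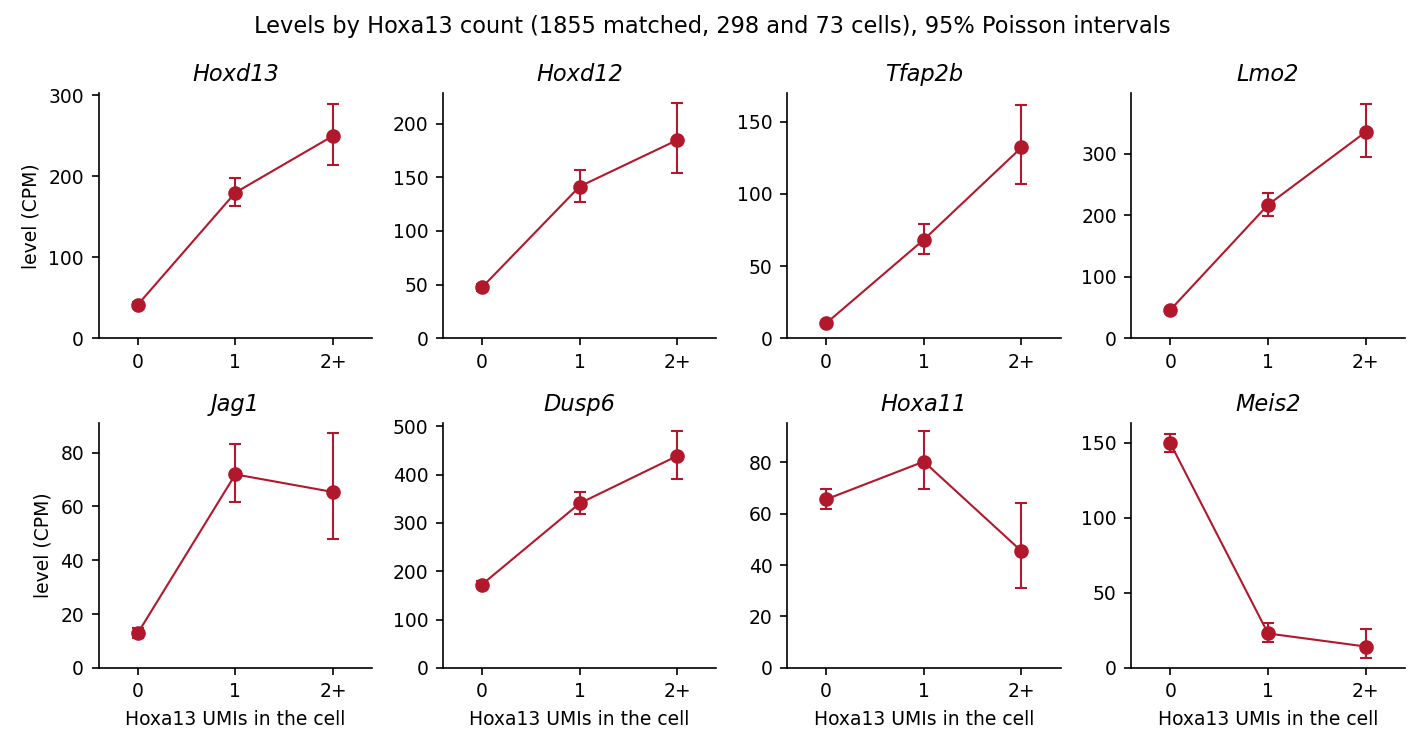
Levels (CPM) of 8 genes in the 1855 matched cells with 0 Hoxa13 UMIs, the 298 cells with 1 and the 73 cells with 2 or more, with 95% Poisson intervals. Tfap2b climbs to 132 CPM with 2 or more UMIs, Meis2 stands at 14.2 CPM there, and Hoxa11 is highest, at 80.3 CPM, in cells with 1 UMI.

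Hoxd13 divided the cells further. The 193 cells with a Hoxd13 UMI were set beside the other 178, which were shallower (medians of 9334 and 7584.5 UMIs). Of 6086 compared genes, 38 (0.624%) were higher in the Hoxd13-positive cells by 2-fold or more and 15 (0.246%) lower. Tfap2b had 138 CPM with Hoxd13 and 6.62 CPM without, Hoxd12 had 240 and 30.9 CPM, and Jag1 had 105.1 and 23.6 CPM. Hand2 had 135 CPM with Hoxd13 and 30.2 CPM without, and the Hedgehog target Ptch1 had 77.9 and 32.4 CPM. Hoxa11 ran the other way, with 46.3 CPM in cells with Hoxd13 and 108 CPM in cells without, as did Asb4, with 441 and 891 CPM, and the collagen gene Col1a2, with 76.8 and 158 CPM. Evx1 stood at 50.7 CPM with Hoxd13 and 42.0 CPM without, intervals that overlap (40.9 to 62.1 and 31.8 to 54.4).

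Hand2 gave a similar split, added after the data were seen because Alx4 was found in only 7 of the cells. Hoxd13 was found in 77.3% (69.8 to 83.6%) of the 154 Hand2-positive cells and in 34.1% (27.8 to 40.8%) of the 217 Hand2-zero cells. In matched Hoxa13-zero cells it was found in 30.2% of those with Hand2 and 7.51% of those without. Among the Hoxa13-positive cells, those with Hand2 were deeper (medians of 9358.5 and 7819 UMIs), which favours finding both genes. Of 6068 compared genes, 27 (0.445%) were higher with Hand2 by 2-fold or more and 22 (0.363%) lower. Hoxd12 had 264 CPM with Hand2 and 49.8 CPM without, and Hoxa11 had 41.8 and 100 CPM. Hoxd13 was found in 41.0% of the cells with a Hoxa11 UMI and in 58.6% of those without, although those with Hoxa11 were the deeper cells (medians of 9432 and 7968 UMIs). In matched Hoxa13-zero cells these shares were 14.7% with Hoxa11 and 13.5% without.

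Cells with Hoxa13 and Hoxd13 were also set beside the 879 cells with Hoxd13 and no Hoxa13 UMI, which were shallower (medians of 9334 and 7481 UMIs). Of 6043 compared genes, 8 (0.132%) were at least 2-fold higher in the cells with both: Tfap2b, Evx1, Eogt, Lmo2, Klf9, Tank, Cbfa2t3 and Tfap2a. Tfap2b had 138 CPM in the cells with both and 51.6 CPM in those with Hoxd13 alone. Another 38 (0.629%) were at least 2-fold lower, including Osr1 at 2.18 and 47.2 CPM, Itm2a at 13.1 and 138 CPM, Meis2 at 18.0 and 93.7 CPM, and Shox2 at 43.6 and 176 CPM, in cells with both and with Hoxd13 alone. Hand2 stood at 135 CPM in the cells with both and 134 CPM in those with Hoxd13 alone.

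**Figure D5:**
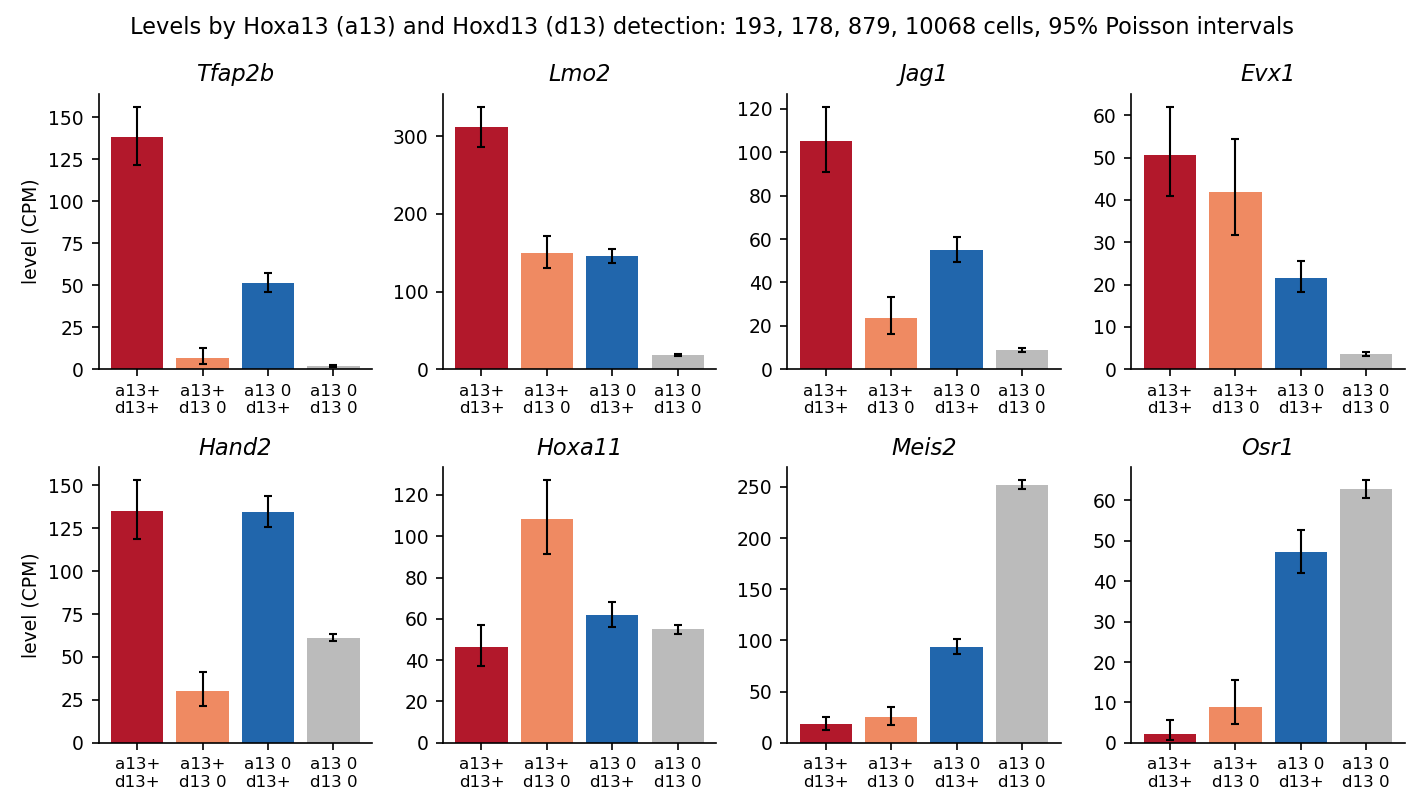
Levels (CPM) of 8 genes in cells sorted by detection of Hoxa13 (a13) and Hoxd13 (d13), with 95% Poisson intervals; bars from left are 193 cells with both, 178 with Hoxa13 alone, 879 with Hoxd13 alone and 10068 with neither. Tfap2b and Jag1 are highest with both genes, Hoxa11 is highest with Hoxa13 alone at 108 CPM, and Meis2 is low wherever Hoxa13 was detected, at 18.0 CPM with both genes.

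Neighbouring groups of the same library show where the cells differ. The 134 mesenchymal cells with a UMI of Shh, the signal of the posterior margin, had 187 CPM of Hoxd13, and 33.6% of them had a Hoxa13 UMI. Over these, 52 of 6127 compared genes (0.849%) were higher in the 371 Hoxa13-positive cells by 2-fold or more and 61 (0.996%) lower. Grem1 had 45.7 CPM in Hoxa13-positive cells and 7.16 CPM in Shh cells, Jag1 had 70.4 and 17.9 CPM, and Asb4 had 633 and 131 CPM. The T-box genes Tbx3 and Tbx2 had 6.89 and 3.44 CPM in Hoxa13-positive cells, against 98.4 and 42.0 CPM in Shh cells, and Bmp4 had 90.8 CPM against 405 CPM.

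The other neighbours were cells with at least 3 Sox9 UMIs and no Shh (2708 cells), and cells with at least 3 UMIs of Meis1 and Meis2 together and no Hoxa13 (4385 cells). Hoxd13 had 195 CPM in the Hoxa13-positive cells, against 10.4 CPM in the Sox9 cells and 8.36 CPM in the Meis cells. Lmo2 had 243 CPM in the Hoxa13-positive cells, against 9.05 CPM in the Sox9 cells and 4.96 CPM in the Meis cells. Dusp6 had 362 CPM in the Hoxa13-positive cells, against 78.2 CPM in the Sox9 cells and 52.1 CPM in the Meis cells. Over the Shh cells, neither Lmo2 nor Dusp6 was among the 15 highest ratios, which ended at 3.11 for Gng11. Such large contrasts are thus not shown against that nearer neighbour. The cartilage collagen gene Col2a1 had 8.45 CPM in the Hoxa13-positive cells, against 129 CPM in the Sox9 cells. The Sox9 and Meis cells were not matched on depth and had medians of 6263.5 and 5633 UMIs.

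Cells under the rule came mainly from the E10.5 library, while Hoxd13 was found in all 3 libraries. Under the same limits, 371 of 11318 mesenchymal cells (3.28%, 2.96 to 3.62%) met the rule in B6_E10.5, against 4 of 9491 (0.0421%) in B6_E9.5 and 0 of 9060 in 129_E9.5, which allows a share of up to 0.0331%. The E9.5 cells were the deeper ones, with medians of 7865 UMIs in B6_E9.5 and 7446 UMIs in 129_E9.5, against 5018.5 UMIs in B6_E10.5. A Hoxd13 UMI was found in 9.47% of the cells in B6_E10.5, against 5.93% in B6_E9.5 and 7.13% in 129_E9.5. Its level over the whole mesenchyme cluster was 31.5 CPM in B6_E10.5, against 7.19 CPM in B6_E9.5 and 11.0 CPM in 129_E9.5. The cells with a Hoxd13 UMI had medians of 7852, 18767 and 8459.5 UMIs in the same order, so the shares also depend on depth. Of those Hoxd13-positive cells, 18.0% (193 of 1072) also had Hoxa13 in B6_E10.5, against 1 of 563 in B6_E9.5 and 0 of 646 in 129_E9.5. Stage and library cannot be told apart in this comparison.

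A UMI of an ectoderm, muscle, endothelium, macrophage or megakaryocyte marker, or 5 or more erythroid marker UMIs, was found in 58.5% of Hoxa13-positive cells and 52.9% of matched cells. The 10 muscle progenitor markers summed to 11.0 CPM in Hoxa13-positive cells and 26.5 CPM in matched cells, with Pax7 and Myog at 0 UMIs in positive cells. The 10 endothelial markers summed to 33.5 and 31.5 CPM, mostly Egfl7, and the 10 macrophage markers to 5.64 and 5.80 CPM, in positive and matched cells. The 6 mesothelium and flank markers measured here summed to 20.7 CPM in positive cells and 70.7 CPM in matched cells, mostly Tbx18, with Wt1 at 0 UMIs in positive cells and 3 in matched cells. The 7 neuron markers summed to 11.9 CPM in positive cells and 27.8 CPM in matched cells, with Isl1 at 0 UMIs in positive cells and 10 in matched cells. Here too the UMI counts of matched cells come from 5 times as many cells. The part of other cell types in the ratios was not tested. Barcodes that also occur in another library were found in 8 of the 371 cells and 89 of the 1855 matched cells, and leaving them out gave 40 genes 2-fold or more higher and 73 lower.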

How the data were processed

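Forelimb buds were dissociated with trypsin and sequenced with droplet 3′ chemistry, per the labels' protocols. The authors deposited raw UMI counts per gene and cell, without normalization, as 1 matrix of 15122 genes and 43950 cells. The cell table they deposited gives other information per cell (stage, strain and 1 of 5 cluster numbers), per the file headers, and cells were assigned to libraries by stage and strain. Per the submitters' processing notes, Cell Ranger 3 and build mm10 were used; neither the annotation release nor the clustering method is given in the sources used here. Of the genes, 15119 were matched to a symbol. Totals were 119942504 UMIs in 18957 cells of B6_E10.5, 124388358 in 12773 cells of B6_E9.5 and 93029510 in 12220 cells of 129_E9.5; 1728 cells shared a barcode with another library.

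For this text, UMIs were summed over cells and divided by group totals to give CPM (Python 3.11.15, numpy 2.4.6, scipy 1.17.1). Each positive cell took the 5 nearest Hoxa13-zero cells in log10 total UMIs, each used once, the deepest positive cell first. Ratios carry exact conditional binomial 95% intervals, shares exact Clopper-Pearson and CPM exact Poisson intervals. A count of 0 was set to 3 counts in a ratio, and its share limit is 3 cells of the total. Compared genes reached 20 CPM and 20 UMIs in whichever group was higher. Named were the 15 highest and 15 lowest ratios whose interval excluded 1, leaving out Hoxa13, Shh, Sox9 and Scx, plus list members; other genes, most of them in the splits within the positive cells, were chosen after their values were seen. No doublet caller was run; cells above 16000 or below 2000 UMIs, and cells with markers of other types, were left out as alternatives. edgeR 4.0.16 served only for TMM scaling. The ratio calculation was tested on simulated data. The members and gene lists were chosen with earlier results of these data known. Counts of 1 library per group allow no test. Some genes are not reported here.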

Additional observations from a re-analysis of the deposited data

Results flagged for a closer look

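Outside the mesenchyme, 2 clusters had a Hoxa13 UMI in more cells than the 3 that a count of 0 allows, a limit that any count of 4 cells passes. In the muscle cluster of B6_E10.5 it was in 22 of 1498 cells (1.47%, median 7695.5 UMIs), where 0 cells would allow up to 0.200%. In the endothelial cluster of B6_E10.5 it was in 4 of 707 cells (0.566%, median 6467 UMIs), where 0 cells would allow up to 0.424%. In the same library the mesenchyme had 3.002%, the ectoderm 0.195% (0.0236 to 0.702%, median 5731.5 UMIs) and erythroid cells 0.748% (0.155 to 2.17%, median 14608 UMIs). The exact interval of the muscle share (0.923 to 2.22%) overlapped that of erythroid cells, and that of the endothelial share (0.154 to 1.44%) overlapped both. No expression is read from these shares.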

How the results depend on the processing

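The counts of genes at least 2-fold higher, 2-fold lower, 1.5-fold higher and 1.5-fold lower (42, 77, 141 and 156) moved by over 1.5 times under 5 of 14 alternatives. Unmatched Hoxa13-zero cells gave 66, 123 and, at 1.5-fold lower, 239. Cells with at least 2 Hoxa13 UMIs gave 72, 139, 329 and 338, with 73 positive cells left. A minimum of 5 CPM, which admits 9191 genes, gave 85, 225, 328 and 513. Cells thinned to 2000 UMIs gave 131 lower at 2-fold, and 324 higher and 359 lower at 1.5-fold. Leaving out cells with any marker of another type, which leaves 154 positive cells, gave 74 higher at 2-fold, and 333 higher and 256 lower at 1.5-fold. TMM scaling gave 36, 85, 116 and 190, and the median log2 ratio then stood at 0.01.

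Of 1274 ratios of 91 genes under the 14 alternatives, 1077 stayed within the counting interval of the reported ratio, 191 moved outside it and 6 turned round, a turn being counted only where the interval of the reported ratio excluded 1. Hoxa11 (1.11), whose interval included 1, stood at 0.56 with at least 2 Hoxa13 UMIs. Lhx2 (0.80) turned to 1.07 unmatched and 1.09 with no limit on Shh, Sox9 or Scx. Lhx9 (0.89) turned to 1.12 unmatched, 1.05 with no limit and 1.07 thinned, and Bgn (1.63) to 0.88 thinned; the cause was not tested. Hoxd13 ranged over 3.999 to 6.70, Tfap2b over 6.57 to 16.6, Meis2 over 0.089 to 0.18 and Hoxa11 over 0.56 to 1.32. Of the 42 higher genes, 41 were shared with the unmatched comparison and 32 with the thinned one. The alternatives that left out cells by markers of other types but set aside 4 of these markers, Tfap2c and Egfl7 included, or that left out cells with a ridge marker, were chosen after seeing the data. No paired analysis was possible because each group is 1 library. Depth limits detection: at 1 UMI per cell a Hoxa13-zero cell is not shown to lack the gene.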
